A study of Mus musculus with 8 samples.

Results

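Genes that mark mast cells and basophils were followed in CD8+ T cells that had been split by their level of the interleukin-18 receptor. There were 10 of them among the 47493 genes of the deposited table, found by gene name, and each reached a mean of at least 1 FPKM, as did 12166 genes of the table. FPKM is a fragment number scaled by transcript length and library depth, so levels can be compared between genes. Slc22a3 and Slc45a3, which encode membrane transporters, were chosen by their lower FPKM in the IL-18Rα-hi-enriched fraction of these same libraries, so that difference is described and not tested. The other 8 were taken as known genes of the lineage. They were Fcer1a and Ms4a2 for chains of the IgE receptor, Cpa3, Mcpt8 and Prss34 for granule proteases, Hdc and Cyp11a1 for enzymes that make mediators, and Gata2 for a transcription factor.

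Mast cells and basophils are granulocytes that carry the high affinity IgE receptor on their surface and store histamine and proteases in granules. Both arise from bone marrow progenitors through intermediates that depend on the transcription factor GATA2 and that share genes with erythroid and megakaryocyte progenitors. Basophils circulate and enter lymphoid tissue such as the spleen, whereas mature mast cells reside in tissue and rely on the receptor tyrosine kinase KIT.

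RNA came from 4 female C57BL/6 mice aged 6 to 8 weeks, and every mouse gave 1 library of each of the 2 fractions. All mice had received 200000 B16F10 melanoma cells in the skin on day 0, cyclophosphamide at 300 mg/kg on day 3, 2000000 Thy1.1 Pmel-1 CD8+ T cells with a transgenic receptor for a melanoma antigen on day 5, recombinant human IL-2 at 10000 IU daily for 3 days from day 5, and 200 µg of the anti-CD4 antibody GK1.5 on days 10, 17 and 24, so no untreated group was compared. On day 25, Thy1.1-negative CD8+ T cells of the host were purified from inguinal lymph nodes and spleen by magnetic negative selection and removal of Thy1.1-positive cells. Cells retained on a column through an IL-18Rα antibody and magnetic beads formed the IL-18Rα-hi-enriched fraction, and cells that passed the column formed the flow-through, which was the control. Fractions with the same number in the labels were taken as those of the same mouse and carry that number below.

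Il18r1, which encodes the selected receptor chain, measured 22.2 to 37.2 FPKM in the flow-through and 107 to 116 FPKM in the enriched libraries. It was higher in the enriched fraction by 1.85 on the log2 scale (limma adjusted p = 0.000291). The estimated depth was 14500000 to 17600000 fragments per library. Summed over 8 genes of CD8 T-cell identity, the level was 1280, 2360, 2048 and 2427 FPKM in flow-through libraries 1 to 4 and 2403 to 2578 FPKM in the enriched libraries. Flow-through library 1 stood apart from the other 7 in this sum. Of the 8 genes, Zap70 was higher in the enriched fraction (log2 fold change 0.64, limma adjusted p = 0.0263) and the other 7 did not pass. In a purified CD8 fraction, genes of granulocytes were measured in every library, since each of the 10 genes had a level of at least 1.02 FPKM throughout.

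The basophil proteases were the most abundant of the 10 genes and rose in the enriched fraction, whereas Gata2 fell there. Of the 8 genes not chosen for their fall, 2 were higher in the enriched fraction (Mcpt8 and Prss34) and 1 was lower (Gata2) in limma, with adjusted p-values under 0.05. Among the 12166 genes tested, 14.1% were higher and 13.7% were lower, so with 8 genes these shares are of the same order as the background. In these 3 genes the libraries of one fraction did not overlap those of the other, as was the case for 16.4% of all genes with the enriched libraries above and 15.9% with the enriched libraries below. In a paired fit, where each mouse entered as a block, 4 of the 8 were higher (Fcer1a, Cpa3, Mcpt8 and Prss34) and 1 was lower (Gata2), and 22.2% and 22.7% of the tested genes passed. The enriched level exceeded the flow-through level in 4 of 4 mice for 5 of the 8 (the 4 above and Cyp11a1), as it did for 29.2% of tested genes, and was below it in 4 of 4 mice for Gata2, as for 30.6%. Without flow-through library 1, the log2 fold changes were 1.42 for Prss34 (limma adjusted p = 0.037), 1.24 for Mcpt8 (adjusted p = 0.0435) and -0.97 for Gata2 (adjusted p = 0.00991), while those of Ms4a2 and Hdc turned to -0.11 and -0.24, without a call. In bulk RNA, fewer cells of a type and less RNA per cell cannot be told apart, which holds for every level given here.

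**Figure D1:**
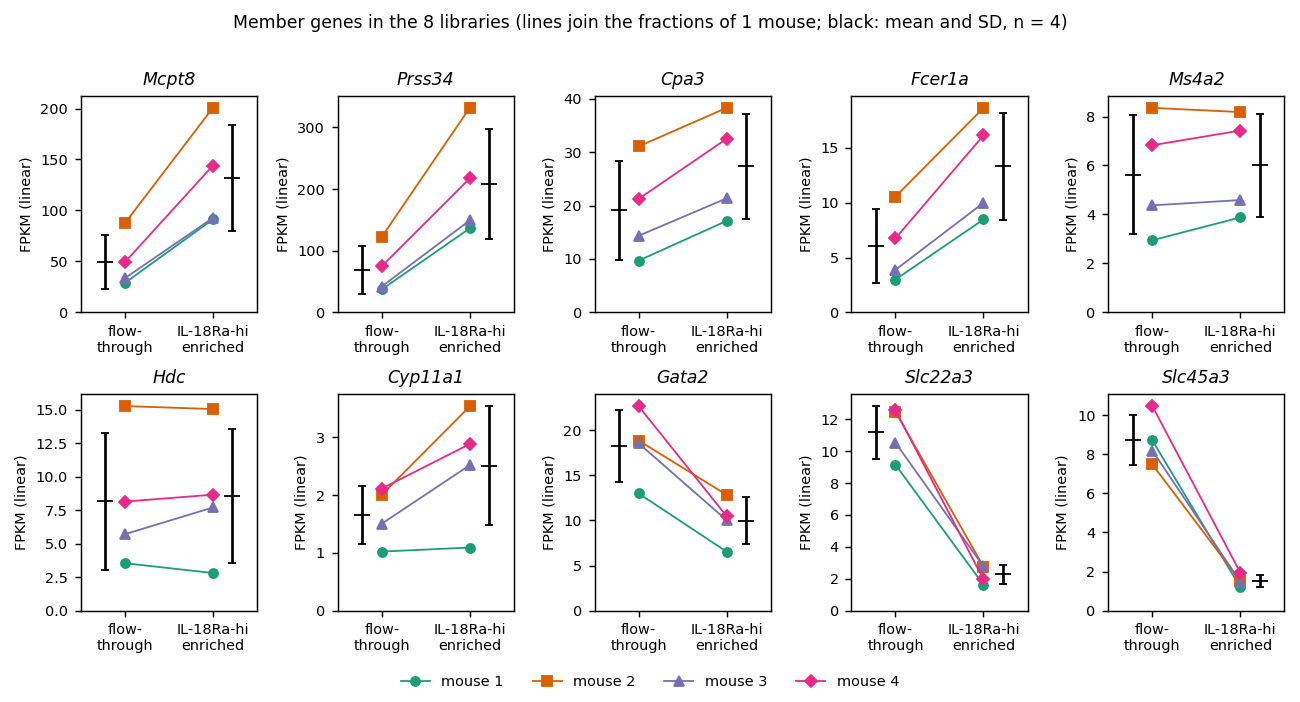
Level of each of the 10 genes in FPKM on a linear axis from 0, with 1 colored point per library and a line joining the 2 fractions of a mouse. Black bars show mean and SD (n = 4). Mcpt8 and Prss34 were higher in every enriched library than in any flow-through library, Ms4a2 and Hdc ran nearly level, and Gata2, Slc22a3 and Slc45a3 were lower in every enriched library.

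The IgE receptor was followed through Fcer1a, which encodes the alpha chain that binds IgE, and Ms4a2, which encodes the signaling beta chain. Their upstream sequences are shown because both genes serve the same receptor. Each is the 250 bases before the RefSeq start on GRCm38.p6, written along the strand of the gene. Capitals mark AGATAA, a motif of GATA factors, or TTATCT, the same motif on the other strand. Fcer1a lies on the minus strand of chr1 and its window is chr1:173227230-173227479. Ms4a2 lies on the minus strand of chr19 with the window chr19:11623720-11623969.
Fcer1a: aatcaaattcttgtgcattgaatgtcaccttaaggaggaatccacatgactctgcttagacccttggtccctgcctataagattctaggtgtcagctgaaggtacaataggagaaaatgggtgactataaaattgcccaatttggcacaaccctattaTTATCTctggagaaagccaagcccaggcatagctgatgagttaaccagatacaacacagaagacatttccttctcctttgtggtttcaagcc
Ms4a2: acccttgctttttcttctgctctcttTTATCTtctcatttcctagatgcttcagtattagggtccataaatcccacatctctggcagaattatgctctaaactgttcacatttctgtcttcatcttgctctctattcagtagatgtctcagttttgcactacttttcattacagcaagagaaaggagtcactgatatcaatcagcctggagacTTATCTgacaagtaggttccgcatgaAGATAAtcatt
The motif occurred once in the Fcer1a window, at 92 to 87 bases before the start, and 3 times in the Ms4a2 window, at 224 to 219, 37 to 32 and 11 to 6 bases before it.

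Fcer1a (chr1:173221284-173227214) measured 3.00, 10.6, 3.88 and 6.75 FPKM in flow-through libraries 1 to 4 and 8.48, 18.7, 9.99 and 16.1 FPKM in the enriched libraries. The enriched library of every mouse lay above its flow-through, by 1.77-fold to 2.83-fold, but the 2 groups overlapped because flow-through library 2 exceeded enriched libraries 1 and 3. The means were 6.04 ± 3.41 FPKM and 13.3 ± 4.86 FPKM (SD, n = 4), a log2 fold change of 1.08 (95% interval 0.26 to 1.91). This did not pass in limma (adjusted p = 0.0556) and did in the paired fit (adjusted p = 0.000552) and when the values were rescaled to TPM, with the same total in each library (log2 fold change 1.14, adjusted p = 0.0424). The exact two-sided permutation test of the unpaired groups gave p = 0.0857. Without flow-through library 2 the limma adjusted p was 0.0186, and without enriched library 1 it was 0.0492.

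Ms4a2 (chr19:11615523-11623719) measured 2.95, 8.35, 4.37 and 6.83 FPKM in the flow-through and 3.88, 8.18, 4.59 and 7.43 FPKM in the enriched libraries. The fractions of each mouse had almost the same level, and the enriched one was above in 3 of 4 mice. The log2 fold change was 0.11 (95% interval -0.59 to 0.81, limma adjusted p = 0.81). In the paired fit the interval narrowed to -0.11 to 0.33 (adjusted p = 0.355). Within a library, the ratio of Fcer1a to Ms4a2 was 0.887 to 1.26 in the flow-through and 2.17 to 2.28 in the enriched libraries, and the ranges did not overlap. The share of other genes whose ratio to Ms4a2 also separated the fractions was not determined. No test was made on ratios.

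Fcer1g encodes the gamma chain, which the IgE receptor shares with Fc receptors of myeloid and natural killer cells. It measured 27.1, 76.9, 38.0 and 53.9 FPKM in the flow-through and 65.3, 139, 84.7 and 143 FPKM in the enriched libraries. It was higher in 4 of 4 mice and rose by 1.15 on the log2 scale (limma adjusted p = 0.0425). The call was lost without any 1 of flow-through libraries 1, 3 and 4 and enriched libraries 2, 3 and 4, with adjusted p from 0.0599 to 0.112. With all libraries, the paired fit gave an adjusted p of 0.000381.

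Granule proteases carried the highest levels. Prss34 and Mcpt8 encode serine proteases that in the mouse mark basophils, and Cpa3 encodes the carboxypeptidase of mast cells, which basophils also make. Their upstream windows are shown because Prss34 and Mcpt8 moved together. The windows are chr17:25298144-25298393 on the plus strand, chr14:56085198-56085447 on the minus strand and chr3:20242182-20242431 on the minus strand, with AGATAA in capitals.
Prss34: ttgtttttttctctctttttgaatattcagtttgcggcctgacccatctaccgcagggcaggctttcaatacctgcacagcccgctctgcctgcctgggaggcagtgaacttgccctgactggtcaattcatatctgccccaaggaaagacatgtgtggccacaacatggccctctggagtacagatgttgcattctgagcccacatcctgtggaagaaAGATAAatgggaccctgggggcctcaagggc
Mcpt8: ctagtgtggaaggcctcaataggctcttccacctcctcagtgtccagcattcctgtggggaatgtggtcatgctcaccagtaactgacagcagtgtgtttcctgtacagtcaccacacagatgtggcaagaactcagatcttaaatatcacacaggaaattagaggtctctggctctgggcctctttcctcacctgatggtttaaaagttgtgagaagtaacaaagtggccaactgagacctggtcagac
Cpa3: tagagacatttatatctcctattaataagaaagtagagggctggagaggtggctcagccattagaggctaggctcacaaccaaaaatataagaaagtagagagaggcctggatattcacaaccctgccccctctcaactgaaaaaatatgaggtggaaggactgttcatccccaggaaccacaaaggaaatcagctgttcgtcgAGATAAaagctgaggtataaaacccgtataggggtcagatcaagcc
AGATAA stood 31 to 26 bases before the start of Prss34 and 46 to 41 bases before that of Cpa3, and neither strand of the Mcpt8 window held it. A match is a description of letters and does not show binding, and the motifs were chosen after the sequences had been seen.

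Prss34 (chr17:25298394-25300165) measured 37.2, 122, 41.9 and 74.6 FPKM in the flow-through and 136, 332, 149 and 217 FPKM in the enriched libraries. The lowest enriched library lay above the highest flow-through library, and each mouse showed a 2.71-fold to 3.67-fold higher level in its enriched fraction. The means were 69.0 ± 39.2 FPKM and 209 ± 89.4 FPKM (SD, n = 4), which differ by 1.65 on the log2 scale (limma adjusted p = 0.0201, SE 0.41). The exact two-sided permutation p was 0.0286, the smallest that 4 against 4 libraries can give. The adjusted p was 0.0589 without flow-through library 3, 0.0541 without enriched library 2 and 0.0559 without enriched library 4. With all libraries, the paired fit gave an adjusted p of 0.000167.

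Mcpt8 (chr14:56082166-56085273) measured 28.9, 87.4, 33.4 and 49.1 FPKM in the flow-through and 91.2, 201, 92.7 and 144 FPKM in the enriched libraries. Again no flow-through library reached the lowest enriched one, although flow-through library 2 came close to it. The difference was 2.30-fold to 3.16-fold within a mouse, and the means were 49.7 ± 26.6 FPKM and 132 ± 51.9 FPKM (SD, n = 4). This is a difference of 1.45 on the log2 scale (limma adjusted p = 0.023, SE 0.38), and the exact two-sided permutation p was again 0.0286. The adjusted p was 0.0668 without flow-through library 3, 0.0624 without enriched library 2 and 0.0633 without enriched library 4. With all libraries, the paired fit gave an adjusted p of 0.000212.

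Cpa3 (chr3:20215620-20242181) measured 9.69, 31.1, 14.3 and 21.3 FPKM in the flow-through and 17.1, 38.3, 21.4 and 32.5 FPKM in the enriched libraries. It was higher in the enriched fraction of all 4 mice, by 1.23-fold to 1.77-fold, and the groups overlapped widely. The log2 fold change was 0.55 (95% interval -0.28 to 1.38), which did not pass in limma (adjusted p = 0.286) and passed in the paired fit (adjusted p = 0.00372). The exact two-sided permutation p was 0.229.

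Levels were also set against Mcpt8 within each library. Since Mcpt8 was higher in every enriched library, a gene that was level or lower has a lower ratio to it, and 48% of the other 12165 tested genes had a lower ratio in every enriched library. Prss34 was 1.25 to 1.52 times the level of Mcpt8 in the flow-through and 1.49 to 1.65 times in the enriched libraries, so these ranges overlapped. The ratio of Cpa3 to Mcpt8 was 0.336 to 0.433 in the flow-through and 0.188 to 0.231 in the enriched libraries, without overlap. Ms4a2, Hdc and Gata2 likewise had a lower ratio to Mcpt8 in every enriched library, at 0.0408 to 0.0516, 0.0308 to 0.0832 and 0.0641 to 0.108, against 0.0956 to 0.139, 0.123 to 0.175 and 0.216 to 0.556 in the flow-through. The ratio of Fcer1a to Mcpt8 overlapped, at 0.104 to 0.137 and 0.0929 to 0.112.

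**Figure D2:**
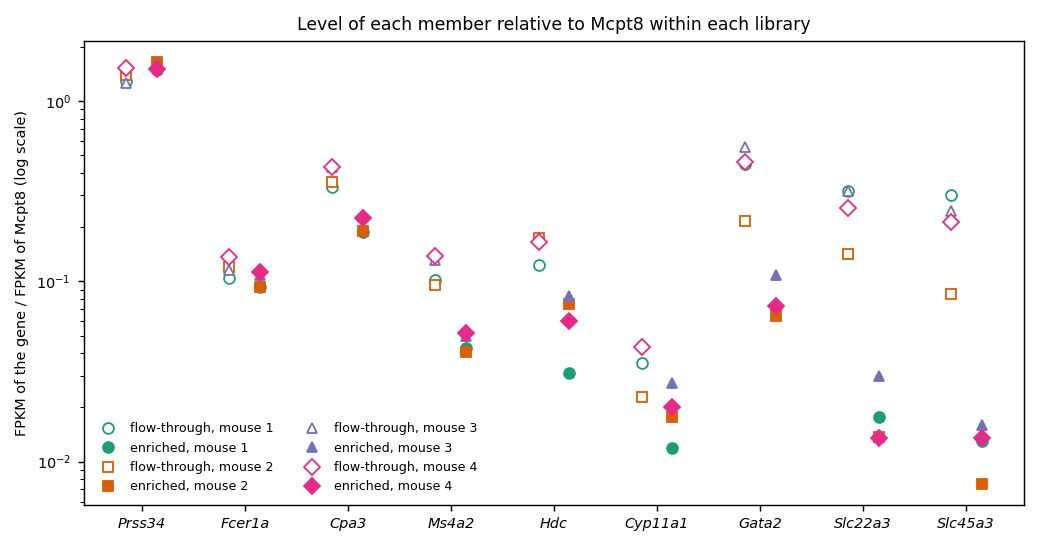
Level of each gene divided by the level of Mcpt8 in the same library, on a log scale, with open symbols for flow-through and filled symbols for enriched libraries and 1 symbol shape per mouse. The ratios of Prss34, Fcer1a and Cyp11a1 overlapped between the fractions, and those of Cpa3, Ms4a2, Hdc, Gata2, Slc22a3 and Slc45a3 lay lower in every enriched library.

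Hdc encodes histidine decarboxylase, which makes histamine. The gene (chr2:126593667-126619299) measured 3.54, 15.3, 5.71 and 8.15 FPKM in the flow-through and 2.81, 15.1, 7.71 and 8.66 FPKM in the enriched libraries. It was higher in the enriched fraction of 2 mice and lower in the other two, with a log2 fold change of 0.05 (95% interval -1.07 to 1.16, limma adjusted p = 0.954). In the paired fit the interval was -0.23 to 0.32. The spread among mice was far larger, as the highest library exceeded the lowest 4.32-fold in the flow-through and 5.36-fold in the enriched fraction.

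Cyp11a1 encodes the mitochondrial enzyme that cuts the side chain of cholesterol in the first step of steroid synthesis. It (chr9:58006411-58027023) was the least abundant of the 10 genes, at 1.02, 2.003, 1.504 and 2.11 FPKM in the flow-through and 1.09, 3.54, 2.52 and 2.88 FPKM in the enriched libraries. All 4 mice had the higher level in the enriched fraction, in mouse 1 by only 1.07-fold. The log2 fold change of 0.36 (95% interval -0.21 to 0.94) did not pass without the block (limma adjusted p = 0.307) or with it (adjusted p = 0.0547). Of its tested partners in the pathway, 0 of 2 passed in limma, also at an unadjusted p under 0.05. Fdxr and Fdx1, which pass electrons to the enzyme, had log2 fold changes of 0.06 and -0.13, and Star, which brings cholesterol into the mitochondrion, stayed at 0.612 to 0.979 FPKM.

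Gata2 (chr6:88193891-88207032) encodes a GATA factor of hematopoietic progenitors, mast cells and basophils. Its level was 13.004, 18.9, 18.6 and 22.7 FPKM in the flow-through and 6.54, 12.9, 10.0 and 10.5 FPKM in the enriched libraries. The highest enriched library stood just under the lowest flow-through library, and every mouse had the lower level in its enriched fraction. The means were 18.3 ± 3.99 FPKM and 9.98 ± 2.60 FPKM (SD, n = 4), so that Gata2 fell by 0.82 on the log2 scale (limma adjusted p = 0.0227, SE 0.21). The exact two-sided permutation p was 0.0286. The adjusted p was 0.0608 without flow-through library 3, 0.0518 without flow-through library 4, 0.0527 without enriched library 3 and 0.0501 without enriched library 4. With all libraries, the paired fit gave an adjusted p of 0.00127.

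Slc22a3 encodes an organic cation transporter that moves histamine and other monoamines across the membrane, and Slc45a3 encodes a solute carrier known best from the prostate. Their upstream windows are shown because both genes were low in all enriched libraries. They are chr17:12507705-12507954 on the minus strand and chr1:131962665-131962914 on the plus strand for the first of 2 RefSeq starts.
Slc22a3: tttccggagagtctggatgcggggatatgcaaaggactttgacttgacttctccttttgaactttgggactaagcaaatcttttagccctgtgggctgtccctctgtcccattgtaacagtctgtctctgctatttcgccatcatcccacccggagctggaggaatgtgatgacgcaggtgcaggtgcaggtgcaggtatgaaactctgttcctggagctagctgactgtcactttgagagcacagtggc
Slc45a3: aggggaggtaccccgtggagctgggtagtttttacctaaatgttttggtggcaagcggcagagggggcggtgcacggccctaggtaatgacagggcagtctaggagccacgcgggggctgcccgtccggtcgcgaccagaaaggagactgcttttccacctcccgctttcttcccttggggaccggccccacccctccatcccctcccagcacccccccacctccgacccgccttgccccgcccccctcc
Neither window held AGATAA, nor did those of Mcpt8, Hdc, Cyp11a1 and Gata2. The RefSeq starts lay 76 bases from the GENCODE start for Mcpt8 and 621 bases for Hdc. They lay 8387 and 8541 bases from it for the 2 starts of Cyp11a1, 4773 bases for the second start of Gata2 and 7642 bases for that of Slc45a3. The window of Mcpt8 therefore reaches into the gene span printed here, and that of Hdc lies within its span. The windows of the second starts of Cyp11a1, Gata2 and Slc45a3 also lie within the spans of their genes. The motif was present on either strand of 9.99% of 32851 windows of the same length in RefSeq, and among the 10 genes, 4 had it (Fcer1a, Ms4a2, Cpa3 and Prss34), with 13 windows searched. Of these 4, Prss34 passed in limma as higher and the other 3 did not pass. TGTGGT, a motif of RUNX factors that does not overlap the GATA motif in letters, was in the windows of Fcer1a, Cpa3 and Mcpt8 and in 14% of all windows, and TTCNNNGAA, a motif of STAT factors, was in none of the 10 genes and in 7.02% of all windows.

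Slc22a3 (chr17:12418960-12507704) measured 9.16, 12.5, 10.5 and 12.6 FPKM in the flow-through and 1.62, 2.76, 2.77 and 1.95 FPKM in the enriched libraries. All enriched libraries were far under all flow-through libraries, as the choice of the gene required. The means were 11.2 ± 1.65 FPKM and 2.27 ± 0.58 FPKM (SD, n = 4), or 4.92-fold lower, and 3.81-fold to 6.44-fold lower within a mouse. The gene Plg, which overlaps Slc22a3 on the opposite strand, was at most 0.0649 FPKM. The strand of the reads was not used in the counting, so reads of such a pair cannot be assigned with certainty.

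Slc45a3 (chr1:131962967-131982969) measured 8.72, 7.49, 8.20 and 10.5 FPKM in the flow-through and 1.19, 1.51, 1.47 and 1.94 FPKM in the enriched libraries. The means were 8.72 ± 1.28 FPKM and 1.53 ± 0.31 FPKM (SD, n = 4). The level was 5.71-fold lower on average and 4.95-fold to 7.34-fold lower within a mouse. The ratio of Slc22a3 to Slc45a3 overlapped between the fractions, at 1.05 to 1.67 in the flow-through and 1.01 to 1.88 in the enriched libraries. On the log2(FPKM + 1) scale the 2 genes had differences of -1.90 and -1.94, which became -2.27 and -2.45 with a pseudocount of 0.1.

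**Figure D3:**
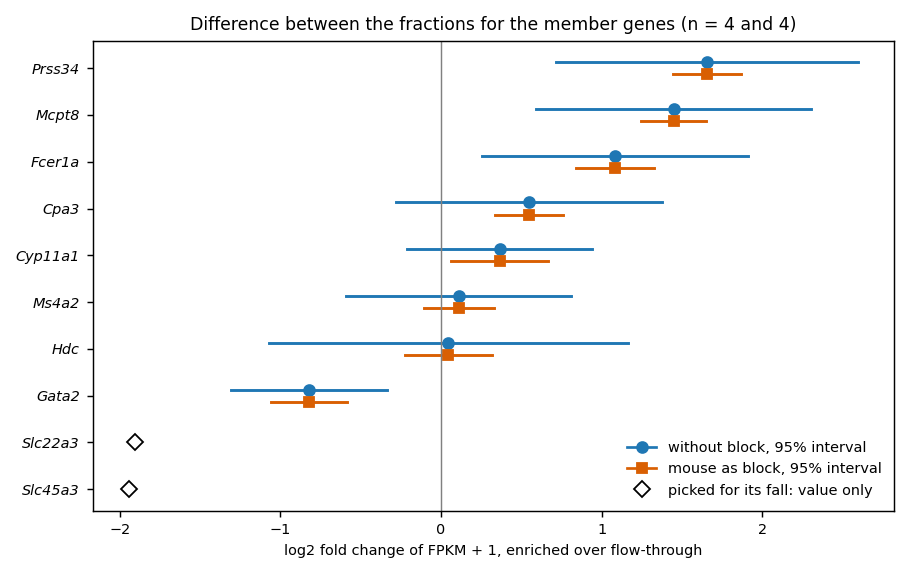
Log2 fold change of FPKM + 1, enriched over flow-through (n = 4 and 4), for the 10 genes, with 95% intervals from the limma fit without a block (blue circles) and with a block for each mouse (orange squares). Prss34 and Mcpt8 lie right of 0 and Gata2 left of 0 in both fits, and Fcer1a and Cpa3 pass the adjusted test with the block alone. Slc22a3 and Slc45a3 appear as values without an interval.

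The order of the mice was much alike among the 10 genes. In the flow-through, 6 genes had their levels in the order mouse 2, 4, 3, 1 from high to low, and in the enriched fraction 8 genes had it. The lowest level was that of mouse 1 for 9 genes in the flow-through and for all 10 in the enriched fraction. Among flow-through libraries, the highest level was 3.03 times the lowest for Mcpt8, 3.29 times for Prss34 and 4.32 times for Hdc. It was 2.07 times for Cyp11a1, 1.75 times for Gata2, 1.40 times for Slc45a3 and 1.37 times for Slc22a3. Over the 8 libraries, Pearson's r of log2(FPKM + 1) was 1.00 between Mcpt8 and Prss34, 0.98 between Fcer1a and Mcpt8, 0.97 between Slc22a3 and Slc45a3 and 0.89 between Gata2 and Slc22a3. These values describe libraries that share the difference between the fractions and the mouse. Slc22a3 and Slc45a3 were both chosen for their fall in these libraries, so a high r between them follows from the choice.

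Mcpt8 was the member with the pattern most like that of Prss34. Outside the 10 genes, which were left out of the search, the tested genes most like Prss34 over the 8 libraries were Tmbim6 (r = 0.991), Lyz2 (r = 0.991), a lysozyme of myeloid cells, and Mapkapk3 (r = 0.989). Those nearest to Slc22a3 were Myc, Slc16a5 and 0610037L13Rik (r = 0.992 for each). Those nearest to Slc45a3 were Snhg17 (r = 0.996), Akap8 (r = 0.995) and Brf1 (r = 0.993). Since Slc22a3 and Slc45a3 were chosen for their fall, genes that share this difference between the fractions rank high by that choice.

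Other genes of the lineage were read from 6 lists with 60 genes found in the table, of which 43 reached a mean of 1 FPKM. In the enriched fraction, 9 of the 43 were higher and 8 were lower in limma, against 14.1% and 13.7% of all genes. The paired fit gave 18 higher and 8 lower, against 22.2% and 22.7% of all tested genes. When libraries were scaled to a common level of the 8 CD8 T-cell genes, 1 gene (Bhlhe40) was higher and 6 were lower, and this scaling moved the median over every tested gene from -0.02 to -0.36. It called 3.06% of tested genes higher and 8.24% lower.

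Among 12 surface receptors, 9 were tested, with a median log2 fold change of 0.70. Of these, 4 were higher and 2 were lower, against 14.1% and 13.7% of all tested genes. Kit, the receptor of stem cell factor on progenitors and mast cells, measured 38.3, 30.4, 30.0 and 30.4 FPKM in the flow-through and 11.01, 15.5, 14.95 and 16.0 FPKM in the enriched libraries. It fell by 1.12 on the log2 scale (limma adjusted p = 0.00136) in 4 of 4 mice. Cd200r3, an activating receptor of basophils and mast cells, was low in the flow-through at 0.388 to 1.62 FPKM and reached 2.06 to 5.15 FPKM in the enriched libraries. It rose by 1.24 on the log2 scale (limma adjusted p = 0.0132) and no longer passed after T-cell scaling (adjusted p = 0.0598). Its flow-through mean was 0.895 FPKM, so Cd200r3 entered the test only through the enriched libraries, and its call is not independent of that.

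Il3ra, the alpha chain of the receptor for the basophil growth factor IL-3, measured 8.11 to 14.9 FPKM in the flow-through and 14.1 to 18.4 FPKM in the enriched libraries (log2 fold change 0.55, limma adjusted p = 0.0476). Il1rl1, the IL-33 receptor of mast cells and other type 2 cells, fell from 5.84 to 10.9 FPKM to 4.14 to 5.24 FPKM (log2 fold change -0.65, limma adjusted p = 0.0336). Both calls were close to the threshold. That of Il3ra was lost without any 1 library other than flow-through library 2 (adjusted p from 0.0657 to 0.123), and that of Il1rl1 without any 1 library other than flow-through libraries 2 and 4 (adjusted p from 0.0511 to 0.0936). Neither Il3ra nor Il1rl1 passed after T-cell scaling (limma adjusted p = 0.408 and 0.0722) or without the filter on low values (adjusted p = 0.0882 and 0.0702). Both passed in the paired fit (adjusted p = 0.00491 and 0.0099). Crlf2, a receptor chain for thymic stromal lymphopoietin that was named after its values were seen, was the fourth gene that was higher (0.82, limma adjusted p = 0.00818), and it no longer passed after T-cell scaling (adjusted p = 0.0874).

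Of the defining proteases of mature mast cells, the tryptases were near the bottom of the scale, while 3 chymases reached a mean of at least 1 FPKM. Tpsb2 and Tpsab1, the tryptases of connective tissue mast cells, were at most 0.137 and 0.059 FPKM in any library, and Mrgprb2, a receptor of the same cells, was listed at 0 in all 8. The chymases Cma1, Mcpt1 and Mcpt4 were detected at 0.777 to 3.996, 0.741 to 3.79 and 0.249 to 1.70 FPKM, and Mcpt2 was at most 0.708 FPKM. Of 8 mast cell proteases, 3 were tested and 0 passed in limma, also at an unadjusted p under 0.05, with Cma1 at an adjusted p of 0.144 without the block and 0.024 with it. The basophil proteases Prss34 and Mcpt8 stood at 28.9 FPKM or more in the same libraries.

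Among 13 genes of mediator synthesis and storage, 7 were tested. Slc18a2, which loads histamine and serotonin into vesicles, was lower, with 2.98 to 4.60 FPKM in the flow-through and 1.41 to 2.46 FPKM in the enriched libraries. It fell by 0.67 on the log2 scale (limma adjusted p = 0.0215), with an adjusted p of 0.0502 without flow-through library 4 and 0.0531 without enriched library 3. The paired fit gave an adjusted p of 0.00351. Srgn, the proteoglycan core of granules that T cells make as well, was the most abundant at 292 to 630 FPKM and had a log2 fold change of 0.24 (adjusted p = 0.453). Alox5ap, which helps to make leukotrienes, had a log2 fold change of 0.85 (adjusted p = 0.157, and 0.00167 in the paired fit).

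Of 12 genes of signaling below the IgE receptor, 3 were higher and 1 was lower, against 14.1% and 13.7% of all tested genes. The median log2 fold change of the 12 was 0.38, and most of the 12 also act below the T-cell receptor. Lcp2 rose by 0.80 (limma adjusted p = 0.0106) and Fyn by 0.62 (adjusted p = 0.0144), and their adjusted p after T-cell scaling was 0.0611 and 0.201. Inpp5d, the lipid phosphatase SHIP1, which was named after its values were seen, rose by 0.34 (adjusted p = 0.0417, and 0.00875 in the paired fit). It lost the unpaired call under 7 of the 8 fits that left out a library (adjusted p from 0.0573 to 0.114), and after T-cell scaling its value was -0.01. Btk, a kinase that T cells lack, fell by 1.14 (adjusted p = 0.00856), from 21.2 to 45.6 FPKM in the flow-through to 11.4 to 13.1 FPKM in the enriched libraries.

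Among 10 tested transcription factors of the lineage, 4 were lower and 2 were higher, against 13.7% and 14.1% of all tested genes. Gata1, Tal1 and Lmo2, which form a complex with GATA factors in erythroid, megakaryocyte and mast cells, had the largest differences. Gata1 measured 117, 32.7, 64.2 and 43.2 FPKM in the flow-through and 30.7, 8.13, 20.5 and 7.22 FPKM in the enriched libraries. It fell by 1.95 on the log2 scale (limma adjusted p = 0.0251), and its adjusted p was 0.0668 without flow-through library 3, 0.0719 without enriched library 2 and 0.0675 without enriched library 4. Unlike Gata2, Gata1 was highest in mouse 1 in both fractions. Tal1 fell by 1.82 (adjusted p = 0.0263, and 0.0734, 0.0738 and 0.071 without the same 3 libraries), and Lmo2 fell by 1.51 (adjusted p = 0.00377). The paired fit gave an adjusted p of 0.000243 for Gata1 and 0.000212 for Tal1. Bhlhe40 and Runx1, named after their values were seen, rose by 1.34 and 0.63 (adjusted p = 0.00622 and 0.0128), and both factors also act in T cells. Runx1 no longer passed after T-cell scaling (adjusted p = 0.316). Stat5a, also named afterwards, fell by 0.48 (adjusted p = 0.00908, and 0.0685 after T-cell scaling).

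**Figure D4:**
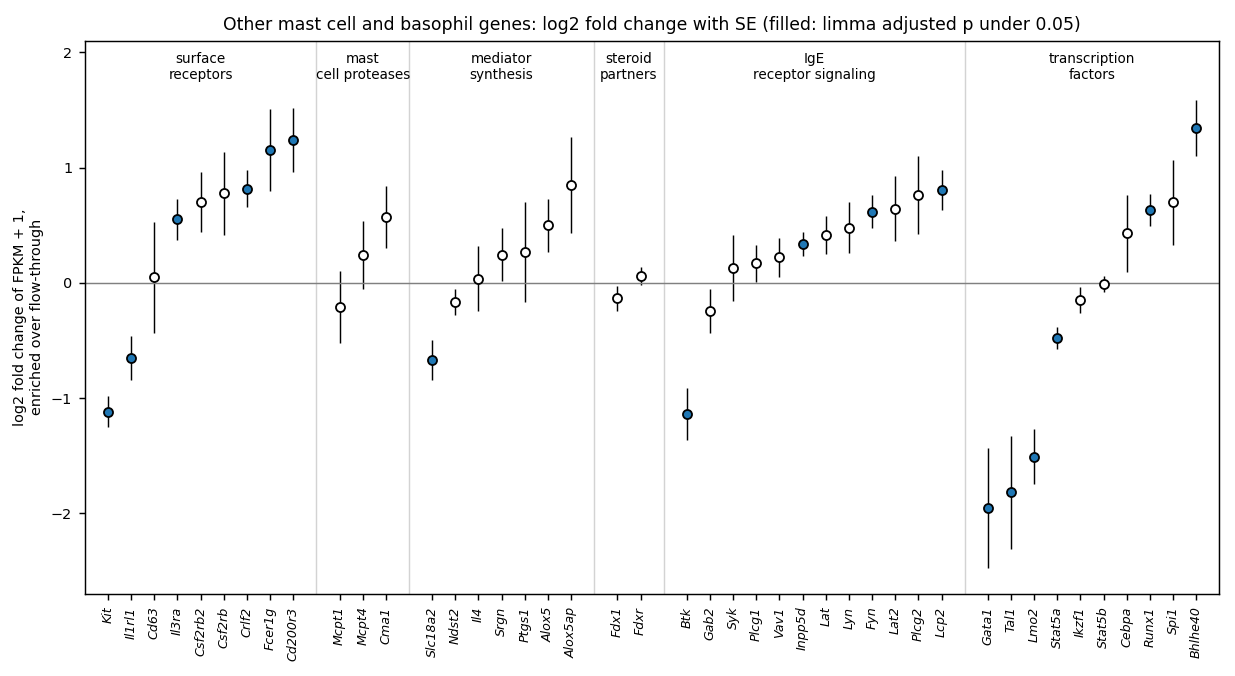
Log2 fold change of FPKM + 1, enriched over flow-through, with its SE for 43 tested genes of 6 lineage lists, with filled points for a limma adjusted p under 0.05 (n = 4 and 4). Filled points lie on both sides of 0, with 9 higher and 8 lower, and Gata1, Tal1 and Lmo2 lie lowest.

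Some marker lists of other blood cells followed the order of mice of most of the 10 genes and others did not, and their part in the differences was not tested. Of 49 tested marker genes, 7 were higher and 11 were lower in limma, against 14.1% and 13.7% of all tested genes, and 11 and 22 in the paired fit, against 22.2% and 22.7%. The summed level of 5 granulocyte progenitor genes was 587, 3424, 985 and 1533 FPKM in the flow-through and 567, 3342, 989 and 1453 FPKM in the enriched libraries. It followed the same order of mice as most of the 10 genes and was the same in both fractions to within 0.948-fold to 1.00-fold. Of its 5 genes, 0 passed in limma, also at an unadjusted p under 0.05, and 1 higher and 1 lower passed in the paired fit. Elane ranged from 111 to 726 FPKM in the flow-through and from 140 to 834 FPKM in the enriched libraries, and Mpo from 252 to 1394 FPKM and from 203 to 1175 FPKM. Hdc and Ms4a2 had a like profile, with large differences among mice and small ones between fractions.

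The summed level of 7 myeloid genes was 138, 543, 302 and 334 FPKM in the flow-through and 438, 1560, 544 and 829 FPKM in the enriched libraries, which was higher in every mouse by 1.80-fold to 3.18-fold. Of the 7, Lyz2, Itgam and Adgre1 passed, with log2 fold changes of 1.41, 1.27 and 0.69 (limma adjusted p = 0.0342, 0.015 and 0.0413). Among all tested genes, 14.1% were higher. Adgre1 had a flow-through mean of 0.805 FPKM and entered the test only through the enriched libraries, so its call is not independent of that. The sum had the order of mice of Prss34 and Mcpt8 in both fractions. The summed level of 6 eosinophil genes was 102, 456, 214 and 383 FPKM in the flow-through and 80.3, 288, 195 and 321 FPKM in the enriched libraries, and 0 of the 4 tested genes passed in limma, also at an unadjusted p under 0.05. Epx and Prg2, which encode proteins of eosinophil granules, had log2 fold changes of -0.52 and -0.33 (adjusted p = 0.483 and 0.69, and 0.00378 and 0.029 in the paired fit). All 4 tested eosinophil genes passed as lower in the paired fit, against 22.7% of all tested genes.

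Genes of erythroid progenitors ran against the order of most of the 10 genes. Their summed level over 11 genes was 2481, 921, 1345 and 1150 FPKM in the flow-through and 623, 174, 412 and 176 FPKM in the enriched libraries. It was highest in mouse 1, where the level of 9 of the 10 genes was lowest in the flow-through, and it was lower in every enriched fraction. In limma, 7 of the 11 passed as lower, against 13.7% of all tested genes. All 11 passed as lower in the paired fit, against 22.7%. Among the 7 were Car1, Mfsd2b and Tfr2 with log2 fold changes of -2.61, -2.25 and -2.17, and the median over the 11 was -1.88. Klf1, the factor that defines the red cell lineage, had a value of -1.85 (adjusted p = 0.0685, and 0.00034 in the paired fit). Of 6 tested megakaryocyte and platelet genes, 0 were higher and 1 was lower in limma, against 14.1% and 13.7% of all tested genes. The lower one was Gp1ba, a chain of the platelet receptor for von Willebrand factor (log2 fold change -0.57, limma adjusted p = 0.0101). It measured 1.21 to 1.67 FPKM in the flow-through and 0.593 to 0.661 FPKM in the enriched libraries, and was lower in 4 of 4 mice. Its enriched mean was 0.632 FPKM, so it entered the test only through the flow-through libraries, and its call is not independent of that. Pf4, a platelet chemokine, measured 5.36 to 11.7 FPKM and 5.78 to 8.93 FPKM (adjusted p = 0.331), and Itga2b, an integrin chain, measured 5.73 to 10.8 FPKM and 3.34 to 9.65 FPKM (adjusted p = 0.448).

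**Figure D5:**
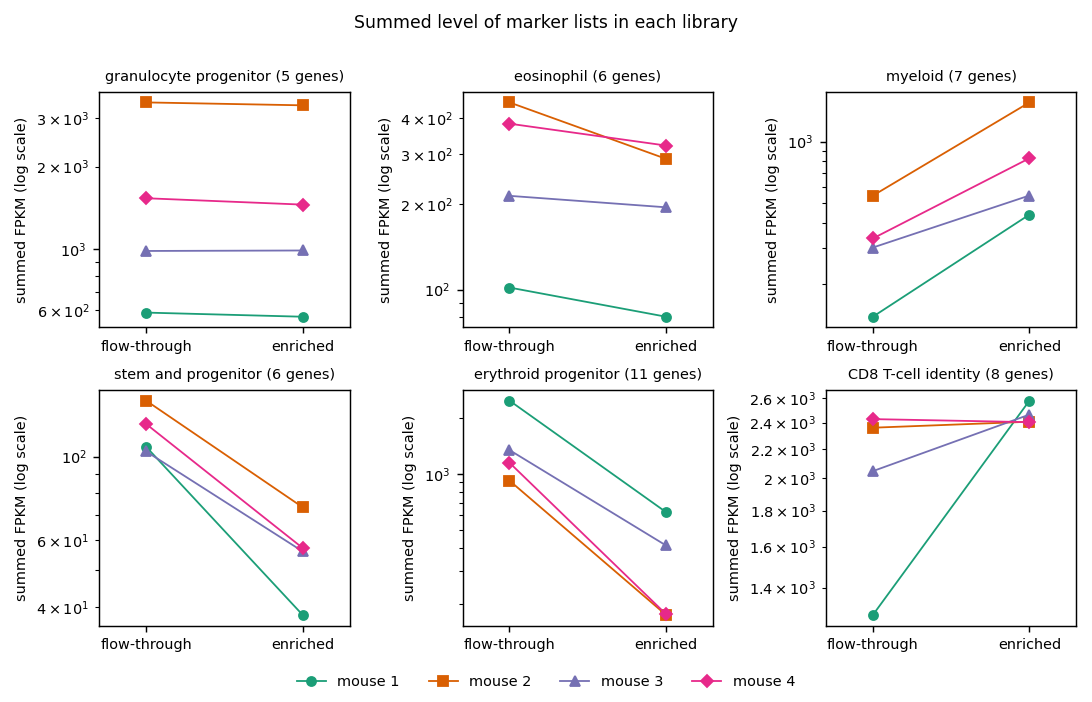
Summed FPKM of 6 marker lists in each library on log axes, with a line joining the 2 fractions of a mouse. The granulocyte progenitor sum is level between the fractions and differs among mice, the myeloid sum is higher and the stem and progenitor and erythroid sums are lower in all 4 enriched libraries, and the sum of CD8 T-cell genes is lowest in the flow-through of mouse 1 at 1280 FPKM.

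Scaling to the CD8 T-cell genes lowered every log2 fold change by the same amount. Again 2 of the 8 tested genes were higher and 1 was lower, against 3.06% and 8.24% of all tested genes. Prss34 rose by 1.31 (limma adjusted p = 0.0379), Mcpt8 by 1.10 (adjusted p = 0.0498) and Gata2 fell by 1.17 (adjusted p = 0.0123). Ms4a2 and Hdc changed sign, to -0.23 and -0.30, without a call under either scaling. Fcer1a had a value of 0.74 (adjusted p = 0.112). It passed when the scaled libraries were also paired (adjusted p = 0.0393), a fit in which 3 of the 8 were higher and 1 was lower, against 3.36% and 19% of tested genes. Cyp11a1 had a value of 0.02, and Cpa3 had 0.20 (adjusted p = 0.595).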

How the data were processed

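The deposited values are FPKM that the authors computed. Stranded poly(A) libraries from 1 µg of total RNA were read as paired ends of 150 bases. After quality filtering, the authors aligned reads to mm10 with TopHat and estimated levels with Cufflinks 2.1.1, with correction for reads of several origins and for fragment bias and other options at their defaults, which ignore strand. The annotation release was not given in the sources used here. FPKM carry no exact depth, so depth was estimated from the smallest values and no count model was used. Groups and replicate numbers came from the labels, which name no mouse.

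The fractions were compared on log2(FPKM + 1) by limma (3.58.1, under R 4.3.3) with a variance trend and no block. The fit covered 12166 genes averaging 1 FPKM or more, with Benjamini-Hochberg adjustment over all of them (threshold 0.05). Fold changes on this scale understate changes of low genes. The code was tested on simulated data. Exact two-sided permutation tests used the 70 arrangements of 8 libraries. Equal numbers were taken as fractions of the same mouse. Deviations from the group means correlated at 0.308 to 0.66 for the same number and -0.6 to 0.412 otherwise, ranges that overlap. Each of the 8 libraries correlated best with the library of its own number in the other fraction. The fit with the mouse as a block is also given on that basis.

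The 10 genes and all lists were chosen with earlier results of these data known. Genes named from a list were the defining genes and the 3 with the largest significant change, filled up by level, and others are said to be named afterwards. Of 61 listed lineage genes, 1 was not matched by name. Coordinates are from GENCODE M21 (mm10), where 98.9% of gene identifiers were found, and upstream sequences are from RefSeq on GRCm38.p6, matched by symbol for all 10 genes.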

Additional observations from a re-analysis of the deposited data

How the results depend on the processing

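Besides the fit reported, 16 others were run, of which the fit with both T-cell scaling and the mouse block was added after seeing the data. In the paired fit (replicate block), 2705 genes were higher and 2763 lower, with 4 of the 8 members not picked for their fall, 18 lineage genes and 11 markers of other cells higher, and 22 such markers lower. T-cell scaling left 372 genes higher and 1003 lower, with 1 lineage gene and 3 markers higher, and with the block as well 409 genes and 3 lineage genes were higher and 21 markers lower. Without the filter on low values, which changes the number of genes adjusted for, 3 markers were higher and 6 lower, and 5 lineage genes were lower. Inpp5d turned to -0.00911 under T-cell scaling, with and without the block. The cause of these changes was not tested. For single members and lineage genes, 719 values with a test kept their side of the threshold, 66 calls were lost and 18 were gained, and of the untested values of Slc22a3 and Slc45a3, 26 moved by less than 1 SD and 6 by more.

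When 1 library was left out, 1124 to 1802 genes were higher and 940 to 1781 lower. Members ran from 0 to 3 higher and 0 to 1 lower, lineage genes from 6 to 10 higher and 5 to 8 lower, and markers of other cells from 3 to 7 higher and 6 to 10 lower. No member was higher without flow-through library 3 or enriched library 2 or 4, and none lower without flow-through library 3 or 4 or enriched library 3 or 4. Prss34, Mcpt8 and Gata2 kept their direction in all 16. FPKM carry no counts, so no counting error could be attached to low genes such as Cyp11a1.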

Other observations

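Genes of type 2 lymphoid cells, which share cytokines and surface proteins with basophils, were also measured. Il17rb, a receptor chain for IL-25, measured 0.683, 2.33, 1.76 and 2.63 FPKM in the flow-through and 4.10, 8.16, 7.76 and 8.71 FPKM in the enriched libraries, and rose by 1.54 on the log2 scale (limma adjusted p = 0.00664). Gata3, a factor of T cells and type 2 cells, measured 8.00 to 15.9 FPKM in the flow-through and 29.9 to 35.0 FPKM in the enriched libraries, and rose by 1.31 (adjusted p = 0.00245). Neither gene overlapped between the fractions, as was the case for 16.4% of all tested genes with the enriched libraries above. Of 5 listed genes of these cells, the other 3 were under 1 FPKM on average and were not tested.

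Of 6 stem and progenitor genes, 3 were lower and 1 was higher, against 13.7% and 14.1% of all tested genes. Myb measured 75.9 to 86.9 FPKM in the flow-through and 22.04 to 33.4 FPKM in the enriched libraries and fell by 1.61 (limma adjusted p = 0.000291), and Cd34 fell by 1.24 (adjusted p = 0.0315). Flt3, a receptor of lymphoid and myeloid progenitors and dendritic cells, rose by 1.18 (adjusted p = 0.0327). The ratio of Slc22a3 to Myb was 0.106 to 0.153 in the flow-through and 0.0734 to 0.0964 in the enriched libraries, without overlap. Slc22a3 was chosen for its fall, and the share of other genes with such a ratio was not determined.

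Ptgdr2 and Il13 of the lineage lists and Ccr3 of the eosinophil list lay under the filter. They were named after their values were seen, because these did not overlap between the fractions. Other listed genes under the filter did overlap, among them Mcpt2, Hpgds, Ltc4s, Ptgs2, Il6 and Mitf. The share of all genes under the filter without overlap was not determined. Ptgdr2, a prostaglandin D2 receptor of type 2 cells, measured 0.108 to 0.34 FPKM in the flow-through and 0.855 to 1.33 FPKM in the enriched libraries. Ccr3, the eotaxin receptor of eosinophils and basophils, measured 0.0382 to 0.242 and 0.291 to 1.15 FPKM, and Il13 measured 0 to 0.209 and 0.232 to 0.753 FPKM. They were not tested.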
